A study of Homo sapiens with 24 samples.

Results

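The genes of major histocompatibility complex (MHC) class I antigen presentation were followed through CAGE-Seq libraries of 4 human glioblastoma cell lines. The 9 genes, chosen by name from 43037 in the deposited table, were HLA-B, HLA-C, HLA-E, HLA-F, B2M, TAP1, TAP2, TAPBP, and NLRC5, and the rule that picks them uses no measured value. CAGE-Seq reads the 5′ ends of capped transcripts, and each value is the number of such tags assigned to a gene scaled to a common library total (CPM). U87MG, T98G, U251MG, and DBTRG-05MG are established, commercially available lines labelled as glioblastoma. U87MG as distributed is of central nervous system origin but of unknown patient origin. Each was transduced with a lentivirus to overexpress WWOX from a CMV promoter (“WWOX”) or with a blank puromycin-resistance lentivirus (“Vec”), at a multiplicity of infection of 1.5 and with selection in 1 µg/mL puromycin, so the controls carry a lentivirus and the selection too. There were 3 libraries in each of the 8 groups. The study describes them as biological triplicates, and the labels do not name the cultures they came from. The medium was MEM for T98G, RPMI 1640 for DBTRG-05MG, and EMEM for U87MG and U251MG.

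Class I molecules show peptides from inside the cell to CD8+ T cells. The heavy chains HLA-B and HLA-C present such peptides, whereas HLA-E and HLA-F are non-classical heavy chains, HLA-E being known as a ligand of receptors on natural killer cells. B2M is the light chain with which these heavy chains pair. TAP1 and TAP2 form the transporter that carries peptides into the endoplasmic reticulum, TAPBP (tapasin) bridges the transporter and the empty heavy chain, and NLRC5 is a transactivator of class I genes. Interferons raise the transcription of this whole pathway in most cell types, and tumors, glioblastoma included, often show less of it.

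On hg38, 7 of the 9 genes lie within the MHC on chromosome 6. HLA-F spans chr6:29722775-29738528 on the plus strand, HLA-E chr6:30489509-30494194 on the plus strand, HLA-C chr6:31268749-31272130 on the minus strand, and HLA-B chr6:31353872-31367067 on the minus strand. TAP2 spans chr6:32821833-32838739, TAP1 chr6:32845209-32853816, and TAPBP chr6:33299694-33314284, all on the minus strand. B2M spans chr15:44711358-44718851 and NLRC5 chr16:56989485-57083531, both on the plus strand. These are gene spans from GENCODE 44. The annotated start of TAP1 lies within the span of PSMB9, an immunoproteasome subunit on the opposite strand. The starts of the gene spans of HLA-B and TAP2 are covered on the same strand by DHFRP2 and ENSG00000250264. The RefSeq start of HLA-B used below is another position, covered only on the opposite strand, by ENSG00000271581.

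The promoters are shown because the values below are counts of tags at transcript starts. Whether their motifs have a part in these values was not tested. RefSeq (GRCh38.p14) promoter windows were matched for 7 of the 9 genes, and HLA-E and NLRC5 had no window. The 250 bases before the RefSeq start are printed 5′ to 3′ on the strand of the gene for the 5 genes on which the line comparison turns.
HLA-C, chr6:31272093-31272342, minus strand: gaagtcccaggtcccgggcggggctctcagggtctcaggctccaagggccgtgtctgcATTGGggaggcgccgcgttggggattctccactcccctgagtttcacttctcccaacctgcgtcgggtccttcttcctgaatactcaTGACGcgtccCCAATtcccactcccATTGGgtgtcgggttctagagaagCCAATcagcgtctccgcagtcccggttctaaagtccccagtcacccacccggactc
HLA-B, chr6:31357180-31357429, minus strand: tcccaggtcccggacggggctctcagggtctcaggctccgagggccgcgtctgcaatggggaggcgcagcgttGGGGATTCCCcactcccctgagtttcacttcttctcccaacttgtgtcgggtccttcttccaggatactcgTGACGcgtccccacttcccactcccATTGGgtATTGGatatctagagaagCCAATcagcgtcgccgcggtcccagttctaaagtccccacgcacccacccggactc
B2M, chr15:44711267-44711516, plus strand: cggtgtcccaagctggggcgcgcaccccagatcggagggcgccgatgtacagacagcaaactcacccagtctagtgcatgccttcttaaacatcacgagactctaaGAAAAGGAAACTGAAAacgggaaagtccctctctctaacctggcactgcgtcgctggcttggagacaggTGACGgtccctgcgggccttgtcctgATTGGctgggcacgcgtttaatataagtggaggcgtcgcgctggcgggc
TAP1, chr6:32853705-32853954, minus strand: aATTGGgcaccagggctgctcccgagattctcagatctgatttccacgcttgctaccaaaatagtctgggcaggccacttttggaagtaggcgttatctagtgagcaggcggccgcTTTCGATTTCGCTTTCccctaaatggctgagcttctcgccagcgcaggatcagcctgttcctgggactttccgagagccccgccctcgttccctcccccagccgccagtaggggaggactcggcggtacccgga
TAPBP, chr6:33314079-33314328, minus strand: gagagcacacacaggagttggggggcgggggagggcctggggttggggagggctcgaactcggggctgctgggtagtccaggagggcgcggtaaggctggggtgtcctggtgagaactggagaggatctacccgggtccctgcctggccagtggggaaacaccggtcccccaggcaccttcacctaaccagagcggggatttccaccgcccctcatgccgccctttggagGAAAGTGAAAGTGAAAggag
Capitals mark matches, on either strand, to an interferon response element-like motif (GAAA and GAAA with any 2 bases between them), an NF-kB-like motif (GGG and TTCCC with any 2 bases between them), CCAAT, and TGACG, and a GAS motif (TTCNNNGAA) was searched too. HLA-B and HLA-C share a layout of TGACG about 100 bases before the start (at −106 and −105) and a forward CCAAT at −56, where positions count back from the base before the start. In HLA-B the NF-kB-like match begins at −177, and the HLA-C window did not hold it. Overlapping pairs of interferon response element-like matches begin at −144 and −138 in B2M, at −134 and −128 in TAP1, and at −20 and −14 in TAPBP. HLA-F and TAP2, not printed, each held 1 such match (at −156 and −58), so 5 of the 7 genes had it. Among 35116 windows of 300 bases (the 250 before the start and 50 after), 3.57% held the interferon response element-like motif, 2.17% the NF-kB-like motif, 34.6% CCAAT, 24.6% TGACG, and 7.66% the GAS motif. The TAP1 start used here lies 488 bases from that of PSMB9, and a second RefSeq window of TAP1 held a GAS match at −189. A match is a description of the letters and not a measured binding site.

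Between 10756072 and 16953689 tags per library fell on genes, and 3 tags, the limit that a count of 0 allows, corresponded to 0.177 to 0.279 CPM, counting error only. HLA-C ran from 373 to 6018 CPM over the 24 libraries, B2M from 1265 to 8375, HLA-E from 184 to 1427, TAPBP from 46.5 to 310.5, HLA-B from 7.67 to 100.5, TAP1 from 12.8 to 112, and NLRC5 from 8.24 to 21. These 7 genes had at least 5 CPM in every library. HLA-F ran from 0.0701 to 5.65 CPM and passed 5 CPM in 1 library only, the U251MG library labelled “WWOX” replicate 2. TAP2 stayed between 0 and 0.617 CPM (at most 9 tags) and was left out of the model. In an exact permutation test of the labels within lines, the mean difference of TAP2 between “WWOX” and “Vec” was 0.09 on the scaled log2 scale (two-sided p = 0.397, 160000 arrangements). The remaining 8 genes were tested among the 12327 genes with 5 CPM or more in some library, in a limma model of the 8 groups on log2(scaled CPM + 0.5). The reads were aligned to hg38, and how the HLA alleles of each line align to that reference was not tested. Of the stretches of 50 bases in the first 300 bases of the annotated transcripts, 37.5% were shared with another gene for HLA-B (450 of 457 with DHFRP2), 41.7% for TAP2 (with ENSG00000250264), 2.82% for HLA-C, 2.33% for TAP1, 1.88% for HLA-F, and 0 for HLA-E, B2M, TAPBP, and NLRC5. Tags of HLA-B, TAP2, and their overlapping genes are therefore uncertain.

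**Figure D1:**
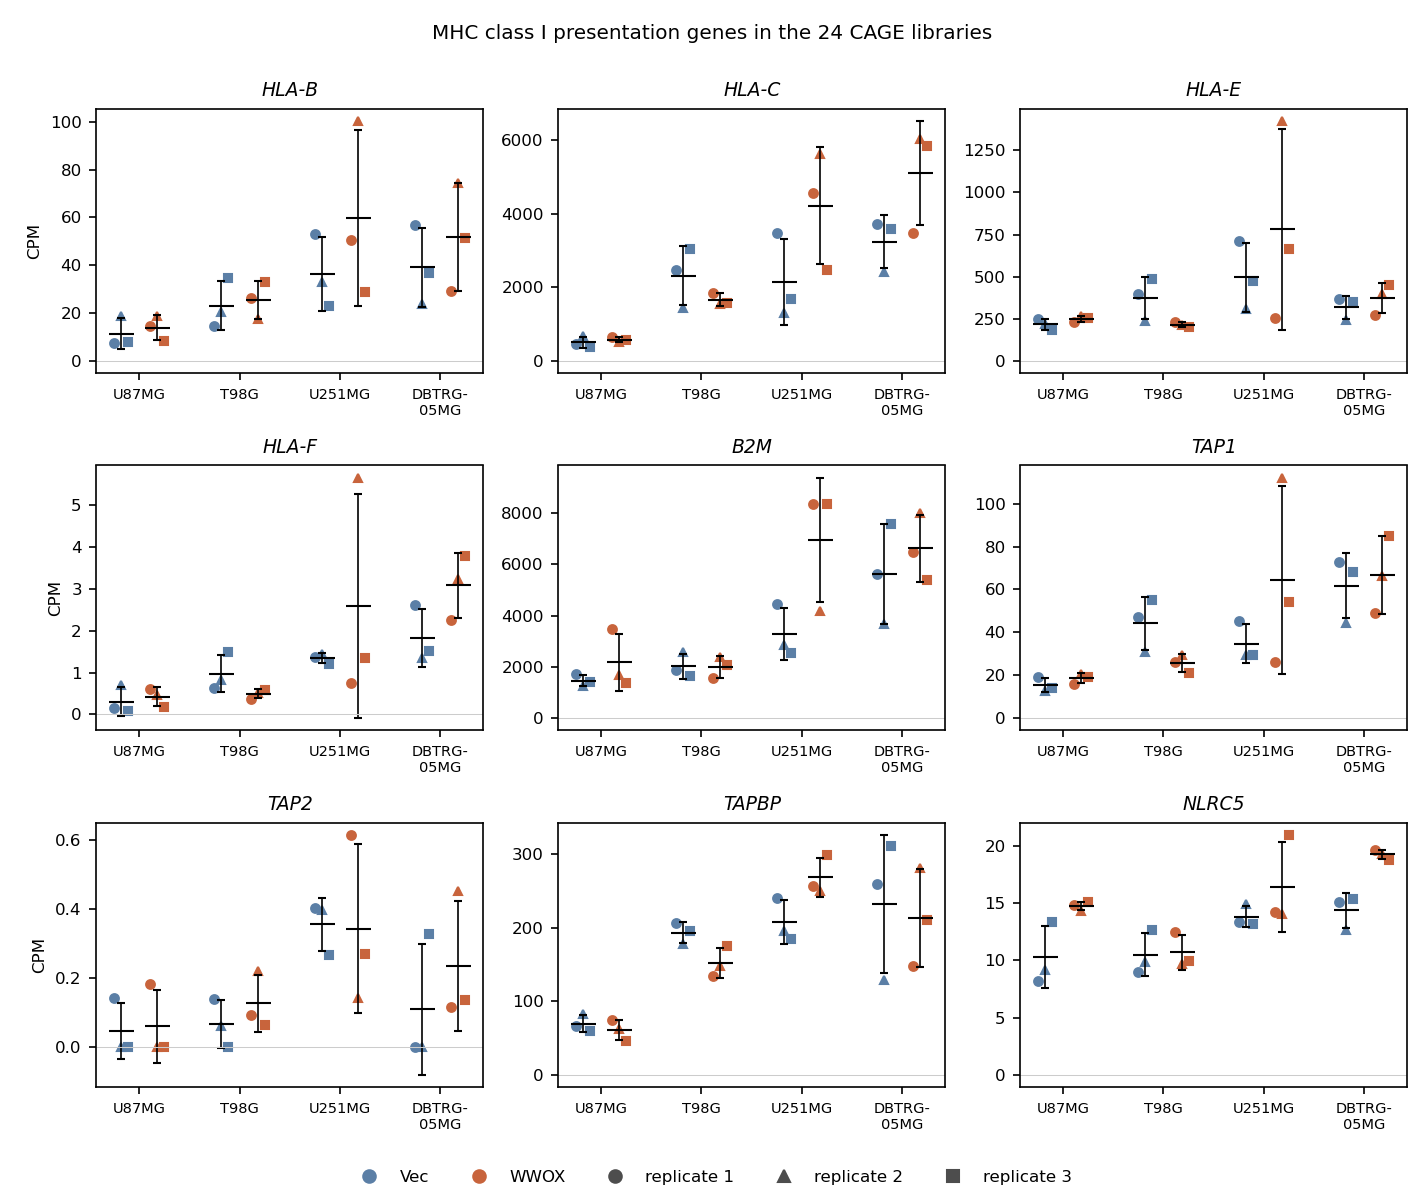
CPM (linear axis, one panel per gene) of the 9 MHC class I genes in the 24 libraries, with “Vec” and “WWOX” side by side in each line; points are libraries, and bars are the mean ± SD of 3. U87MG lies at the bottom for HLA-C (373 to 673 CPM) and TAPBP (46.5 to 82.5 CPM), and the U251MG library labelled “WWOX” replicate 2 stands at the top for HLA-B, HLA-E, HLA-F, and TAP1.

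WWOX itself was checked first, as the gene the transduction targets. In U87MG it measured 40.1, 33.9, and 39.8 CPM in “Vec” and 66.0, 61.3, and 61.0 CPM in “WWOX”. In DBTRG-05MG it measured 20.4, 22.2, and 21.3 CPM and then 32.0, 28.2, and 28.0 CPM. The variants did not overlap in those lines, but they did in T98G (38.6, 57.2, and 34.2 CPM against 45.1, 61.8, and 60.0 CPM). In U251MG, “Vec” held 31.4, 36.8, and 32.1 CPM, and “WWOX” held 56.7, 17.4, and 38.0 CPM, so the library labelled “WWOX” replicate 2 had less WWOX than any “Vec” library of its line. No line passed the threshold (log2FC 0.66, 0.38, −0.01, and 0.39 in U87MG, T98G, U251MG, and DBTRG-05MG, with adjusted p = 0.136, 0.554, 1, and 0.770). In U87MG it passed with DESeq2 on the tags (log2FC 0.67, adjusted p = 0.0470) and after a correction for GC content and length chosen after the data had been seen (log2FC 0.60, adjusted p = 0.0329). A value per gene does not set apart transcripts begun in the vector, so a low value does not show the absence of the transgene. The study reports that the efficiency of transduction was shown on protein by Western blot, which tags of RNA do not measure.

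The cultures were checked with marker lists. CD44, a surface glycoprotein of mesenchymal glioma cells, and the other glioma markers summed to between 1223 and 6412 CPM in every library. Of 10 immune cell markers, 7 to 10 were at or under 3 tags in every library of a group. Their sum was at most 15.9 CPM and was highest in U87MG (6.36 to 15.9 CPM). Endothelial markers (4 genes) summed to at most 15.4 CPM and were highest in U251MG. The astrocyte filament GFAP was at least 114 CPM in U251MG but at most 11.6 CPM in the other lines, and the neural stem cell factor SOX2 was at most 0.562 CPM in U87MG and T98G.

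In “Vec”, U87MG had the lowest mean CPM of each of the 8 genes tested, although not every difference passed. Against T98G “Vec”, U87MG “Vec” was lower for 3 of the 8 genes tested, against U251MG “Vec” for 4, and against DBTRG-05MG “Vec” for 6, and none was higher (limma, adjusted p under the threshold of 0.05). Over all genes tested, 21.7%, 20.8%, and 24.3% were lower in U87MG in these comparisons. The median log2FC of the 8 genes was −0.98, −1.09, and −1.51, beside −0.02, −0.05, and −0.08 over all genes. HLA-C and TAPBP were lower in U87MG than in each of the other lines, 2 of the 8 genes, beside 8.16% of all genes. The comparisons share the U87MG libraries and are not independent of each other. In bulk cultures, less RNA per cell and fewer cells with the RNA cannot be told apart. The medium differed too, so line and medium cannot be told apart except against U251MG, which was grown in the same medium as U87MG.

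**Figure D2:**
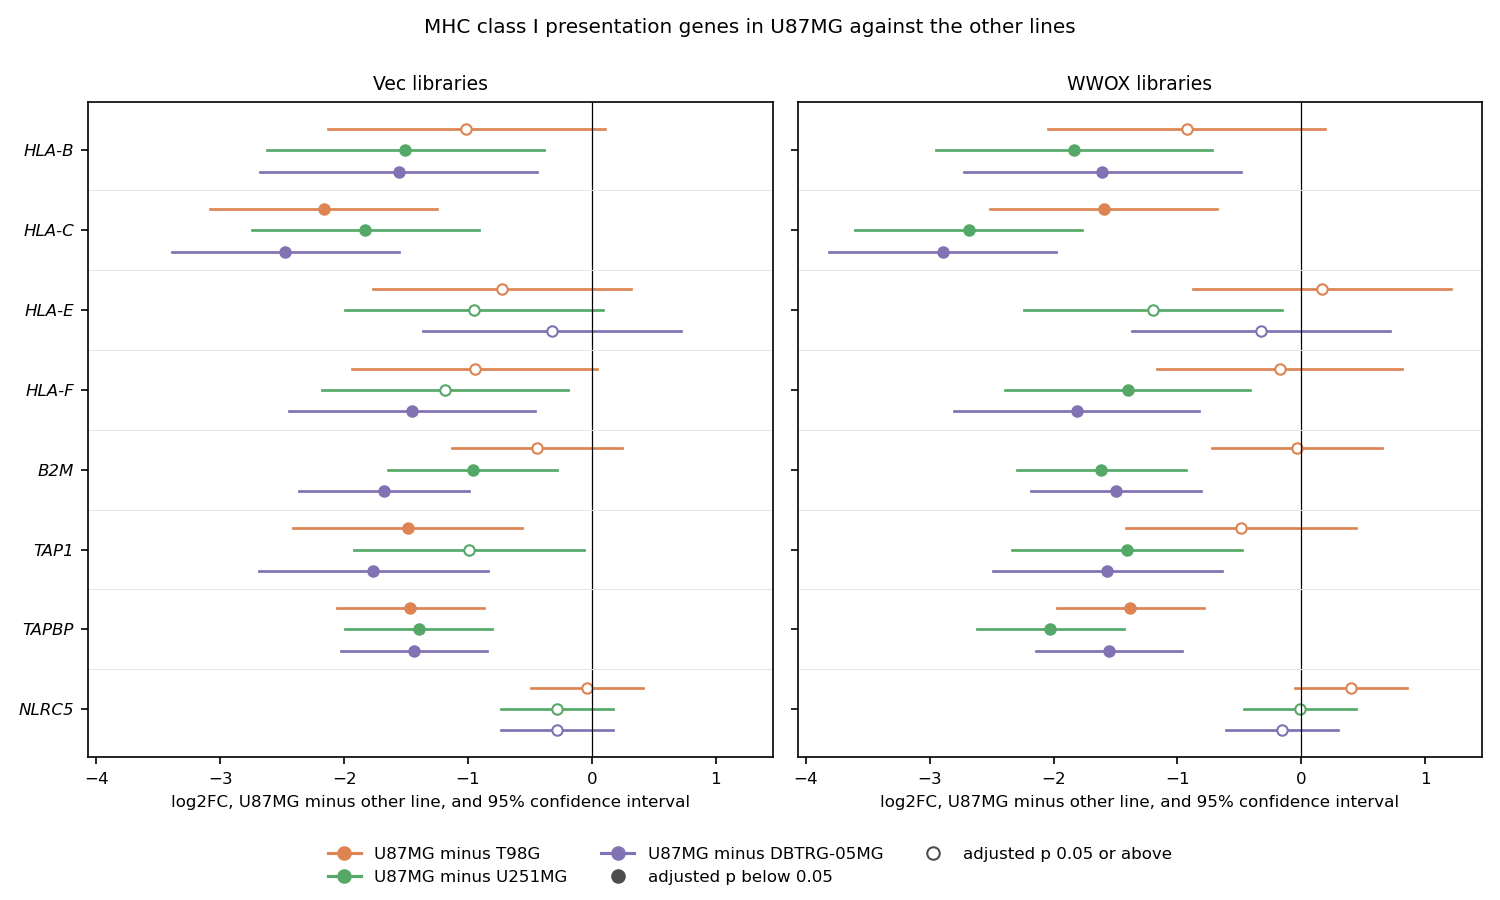
Log2FC of U87MG against T98G, U251MG, and DBTRG-05MG for the 8 genes tested, in “Vec” (left) and “WWOX” (right) libraries; points are estimates, lines are 95% confidence intervals from limma, and filled points have an adjusted p below 0.05. HLA-C and TAPBP are filled and left of 0 in all 6 comparisons, and HLA-E and NLRC5 are open in all 6.

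Among the heavy chains, HLA-C showed the widest gap between lines. It measured 473, 673, and 373 CPM in U87MG “Vec”. In the other “Vec” libraries it measured 2470, 1448, and 3040 CPM in T98G, 3478, 1290, and 1691 CPM in U251MG, and 3728, 2411, and 3582 CPM in DBTRG-05MG. Every library of U87MG was below every library of the other lines, which overlapped each other. The share of all genes separated between lines in this way is not given, here or for the genes below. Such separation is therefore not read as particular to them. HLA-C in U87MG “Vec” was 4.48-fold lower than in T98G “Vec” (log2FC −2.16, standard error 0.44, adjusted p = 0.000399), 3.55-fold lower than in U251MG (adjusted p = 0.00206), and 5.56-fold lower than in DBTRG-05MG (adjusted p = 8.24e-05).

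HLA-B measured 7.67, 18.9, and 7.79 CPM in U87MG “Vec”, 14.5, 20.4, and 34.6 CPM in T98G, 53.3, 33.1, and 22.9 CPM in U251MG, and 56.6, 24.0, and 36.9 CPM in DBTRG-05MG. The U87MG libraries overlapped those of T98G and lay below those of U251MG and DBTRG-05MG. The log2FC was −1.51 (standard error 0.54, adjusted p = 0.0304) against U251MG and −1.56 (adjusted p = 0.0223) against DBTRG-05MG, and −1.02 against T98G did not pass the threshold. These calls of HLA-B were fragile. Without U87MG “Vec” replicate 1 or 3, or U251MG “Vec” replicate 1 or 2, the adjusted p against U251MG was 0.113, 0.123, 0.144, and 0.0513. Without DBTRG-05MG “Vec” replicate 1, U87MG “Vec” replicate 1, or replicate 3, the adjusted p against DBTRG-05MG was 0.108, 0.0861, and 0.0954.

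HLA-E passed the threshold in no comparison of “Vec” variants. Its median was 217 CPM in U87MG, below the 348, 396, and 473 CPM of DBTRG-05MG, T98G, and U251MG. HLA-F was at 0.142, 0.695, and 0.0701 CPM in U87MG “Vec” and 2.62, 1.35, and 1.51 CPM in DBTRG-05MG “Vec”, a log2FC of −1.45 (adjusted p = 0.0169). It entered the model only through the U251MG library named above, and its call was lost without DBTRG-05MG “Vec” replicate 1, U87MG “Vec” replicate 1, or replicate 3 (adjusted p = 0.0787, 0.0590, and 0.0783).

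The light chain B2M measured 1709, 1265, and 1408 CPM in U87MG “Vec” and 1872, 2560, and 1624 CPM in T98G “Vec”. The CPM of these lines overlapped, but their scaled values did not, and the log2FC of −0.44 did not pass the threshold. U251MG “Vec” held 4440, 2849, and 2536 CPM and DBTRG-05MG “Vec” 5614, 3678, and 7602 CPM, all above every U87MG “Vec” library. B2M was 1.95-fold lower in U87MG than in U251MG (log2FC −0.96, standard error 0.33, adjusted p = 0.0242) and 3.20-fold lower than in DBTRG-05MG (adjusted p = 0.000244). The call against U251MG was lost without U87MG “Vec” replicate 2 or 3 or U251MG “Vec” replicate 1 (adjusted p = 0.0878, 0.0803, and 0.145). B2M was the 1 gene of the 8 that was lower in T98G “Vec” than in DBTRG-05MG “Vec” (2.35-fold, adjusted p = 0.00452), beside 21.6% of all genes. Between T98G and U251MG “Vec” 0 of 8 genes were lower (15.5% of all genes), and likewise 0 of 8 between U251MG and DBTRG-05MG (17.0% of all genes). At an unadjusted p under 0.05 the counts of limma were 0 and 1 (B2M, log2FC −0.72, adjusted p = 0.105), beside 41.2% and 40.8% of all genes.

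Among the genes of peptide transport and loading, TAPBP too was lowest in U87MG. It measured 66.2, 82.5, and 60.3 CPM in U87MG “Vec”, 206, 177, and 196 CPM in T98G, 241, 196, and 184 CPM in U251MG, and 259, 129, and 310.5 CPM in DBTRG-05MG. The highest U87MG library lay below the lowest library of each other line. The fold was 2.76 against T98G (adjusted p = 0.00024), 2.64 against U251MG (adjusted p = 0.000407), and 2.70 against DBTRG-05MG (adjusted p = 0.000274), with log2FC of −1.47, −1.40, and −1.43 and a standard error of 0.28.

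TAP1 measured 19.0, 12.8, and 13.8 CPM in U87MG “Vec”, 47.0, 30.8, and 55.1 CPM in T98G, 45.3, 29.4, and 29.6 CPM in U251MG, and 72.7, 44.6, and 68.3 CPM in DBTRG-05MG. The libraries of U87MG lay below all others. It was 2.80-fold lower in U87MG than in T98G (log2FC −1.49, standard error 0.45, adjusted p = 0.0103) and 3.40-fold lower than in DBTRG-05MG (adjusted p = 0.00259). Against U251MG the log2FC of −0.99 did not pass (adjusted p = 0.0836). The call against T98G was lost without T98G “Vec” replicate 3 (adjusted p = 0.0669).

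NLRC5, the transactivator, passed the threshold in no “Vec” comparison. Its “Vec” libraries held 8.24, 9.20, and 13.3 CPM in U87MG, 9.0, 9.84, and 12.6 CPM in T98G, 13.4, 14.9, and 13.2 CPM in U251MG, and 15.1, 12.6, and 15.3 CPM in DBTRG-05MG. U87MG overlapped every other line. The CPM of T98G lay just under those of U251MG, but the scaled values of these lines overlapped.

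The “WWOX” libraries gave a second set of 3 per line. HLA-F is left out of the counts against U251MG “WWOX”, because it entered the model only through a library of that group. U87MG was lower for 2 of the 8 genes against T98G (21.1% of all genes), for 5 of the other 7 against U251MG (22.4% of all genes), and for 6 of the 8 against DBTRG-05MG (26.3% of all genes). HLA-C and TAPBP were again the 2 genes lower than in each other line (7.89% of all genes). HLA-C measured 643, 507, and 570 CPM in U87MG “WWOX” and was 6.42-fold lower than in U251MG (adjusted p = 3.55e-05) and 7.44-fold lower than in DBTRG-05MG (adjusted p = 1.19e-05). TAPBP measured 74.3, 62.6, and 46.5 CPM there, with log2FC of −1.38, −2.03, and −1.55 against T98G, U251MG, and DBTRG-05MG (adjusted p = 0.000439, 4.59e-06, and 0.000111). T98G “WWOX” was lower than U251MG “WWOX” for 2 of the 7 genes (B2M and HLA-E), beside 20.7% of all genes, and lower than DBTRG-05MG “WWOX” for 4 (NLRC5, B2M, HLA-C, and HLA-F), beside 24.3%. U251MG “WWOX” was lower than DBTRG-05MG “WWOX” for 0 of the 7 genes, beside 20.4% of all genes. HLA-E ran from 254 to 1427 CPM in U251MG “WWOX”, and its comparison was not repeated without the highest library. None of the genes counted passed the threshold as higher in the first line named. The estimate was above 0 for 2 genes of U87MG against T98G and for 4 of U251MG against DBTRG-05MG. After the correction for GC content and length, chosen after the data had been seen, NLRC5 was higher in U87MG than in T98G (log2FC 0.61, adjusted p = 0.00587 in limma).

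Related genes in the “Vec” comparisons did not all take the same direction. Over all genes, 18.0%, 17.9%, and 19.8% were higher in U87MG than in T98G, U251MG, and DBTRG-05MG, beside the shares that were lower given above. Of 15 genes of peptide loading and trimming, 9, 4, and 7 were lower and 1, 1, and 3 higher in U87MG, in the same order of lines. Of the 5 immunoproteasome genes, 4, 0, and 0 were lower and 0, 1, and 2 higher. PSMB8 and PSMB9, catalytic subunits encoded beside TAP2 and TAP1, were lower than in T98G (log2FC −1.75 and −1.98). Of the 3 constitutive catalytic subunits, 0 were lower in any of the comparisons, and 1, 0, and 2 were higher. Of 14 tested regulators of class I transcription, 4, 2, and 3 were lower and 1, 1, and 2 higher, with IRF1, an interferon-induced activator, at −1.48 against T98G (adjusted p = 0.029).

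Interferon-stimulated genes, 20 in the list, were lower in U87MG for 7, 5, and 6 genes and higher for 0, 1, and 0, with median log2FC of −1.46, −1.05, and −1.30. MHC class II genes, which present peptides to CD4+ T cells, went the other way. Of the 7 tested, 6, 7, and 7 were higher in U87MG “Vec” (beside 18.0%, 17.9%, and 19.8% of all genes), with median log2FC of 4.53, 5.82, and 4.86. Most of them passed the filter through U87MG, so they had to differ. CD74, the invariant chain, ran from 129 to 237 CPM in U87MG “Vec” and was at most 4.06 CPM in the other “Vec” libraries. The immune markers above are given beside this list, and their part in it was not tested.

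The position of the genes was compared as well. Between 29 and 34 Mb of chromosome 6, 88 genes were tested besides the class I genes followed here. Their median log2FC was −0.90, −0.57, and −0.16 in U87MG “Vec” against T98G, U251MG, and DBTRG-05MG. The 636 tested genes of the whole chromosome, the class I genes located there included, had −0.19, −0.37, and −0.23. For chromosome 15, which holds B2M, the medians over 392 genes were 0.06, −0.12, and −0.26. The part of copy number in the line differences was not tested.

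WWOX against Vec gave no class I call in any line. U87MG had 0 of 8 genes past the threshold (beside 3.20% of all genes), T98G 0 (1.14%), U251MG 0 (0.316%), and DBTRG-05MG 0 (1.02%). Counting genes by limma with an unadjusted p under 0.05 instead gave 1 (NLRC5), 0, 2 (B2M and HLA-C), and 0, beside 11.5%, 11.5%, 11.5%, and 7.65% of all genes. The median log2FC of the 8 genes was 0.23, −0.38, 0.51, and 0.26, and 7, 2, 8, and 7 of them were above 0. HLA-F entered the model only through a “WWOX” library of U251MG, so the filter favoured its sign there. The count and the median of U251MG include it. Over all genes the medians were −0.01, −0.05, 0, and 0.00. A separate count was 0 of 8 for the mean of the 4 lines (beside 1.80% of all genes).

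**Figure D3:**
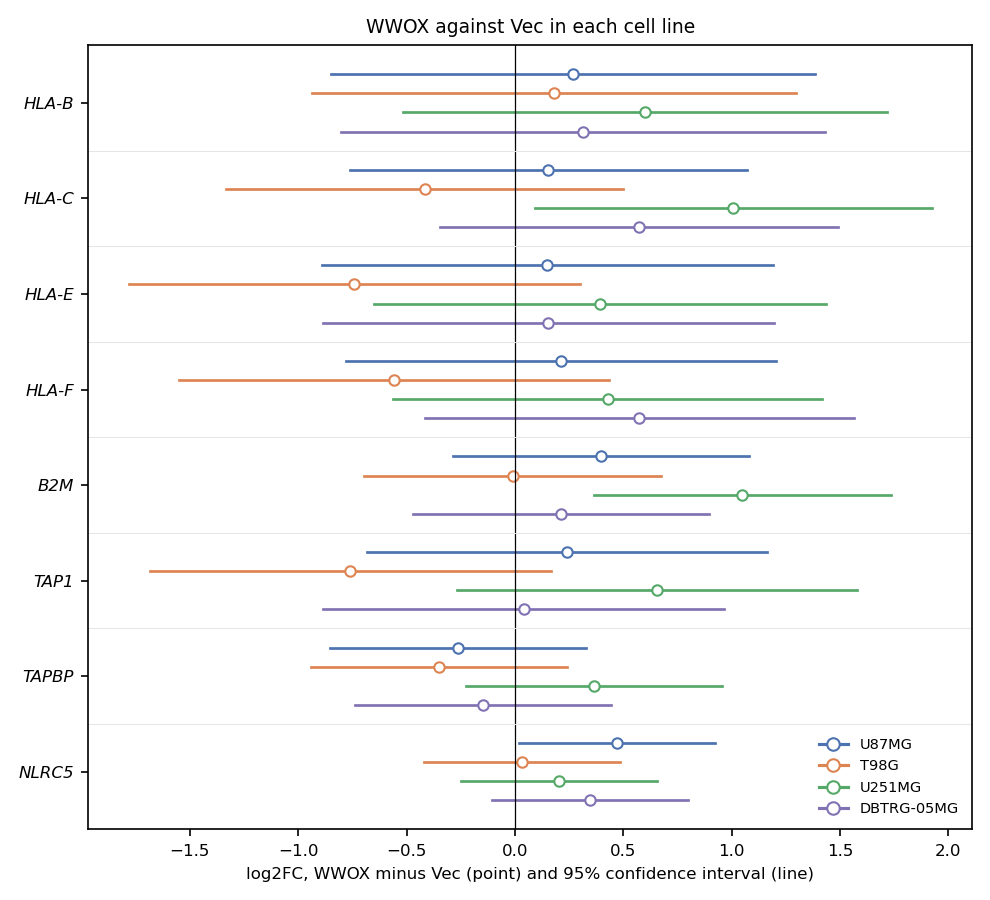
Log2FC of “WWOX” against “Vec” for the 8 genes in each line; points are limma estimates and lines their 95% confidence intervals, and all points are open because none had an adjusted p below 0.05. The T98G points of HLA-C, HLA-E, HLA-F, TAP1, and TAPBP lie left of 0, B2M sits at −0.01, and the interval of B2M in U251MG (0.36 to 1.73) and of HLA-C in U251MG (0.09 to 1.92) lies right of it.

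B2M had the largest estimate. In U251MG it measured 4440, 2849, and 2536 CPM in “Vec” and 8375, 4169, and 8371 CPM in “WWOX”. On the scaled values the variants did not overlap, which held upward for 5.43% of all genes, whereas the CPM of “WWOX” replicate 2 lay under that of “Vec” replicate 1. The log2FC was 1.05 (standard error 0.33, adjusted p = 0.190). In U87MG, “WWOX” held 3461, 1695, and 1353 CPM, in T98G 1551, 2393, and 2057 CPM, and in DBTRG-05MG 6492, 8012, and 5403 CPM, and these overlapped their “Vec” libraries (log2FC 0.40, −0.01, and 0.21). As the mean of the 4 lines B2M had a log2FC of 0.41 (adjusted p = 0.228).

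NLRC5 measured 14.8, 14.3, and 15.1 CPM in U87MG “WWOX” and 19.6, 19.3, and 18.8 CPM in DBTRG-05MG “WWOX”. All 3 libraries lay above the “Vec” libraries in both lines, a pattern that 7.73% of all genes showed in U87MG and 9.42% in DBTRG-05MG. The log2FC was 0.47 (standard error 0.22, 95% confidence interval 0.02 to 0.92, adjusted p = 0.392) in U87MG and 0.35 (adjusted p = 0.827) in DBTRG-05MG. In T98G (12.5, 9.65, and 9.97 CPM) and U251MG (14.2, 14.0, and 21 CPM) the variants overlapped. The mean of the lines was 0.26 (standard error 0.11, adjusted p = 0.247), and B2M and NLRC5 were the 2 of 8 genes with an unadjusted p under 0.05 there, beside 15.5% of all genes.

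HLA-C measured 4552, 5611, and 2479 CPM in U251MG “WWOX”, with a log2FC of 1.01 (standard error 0.44, 95% confidence interval 0.09 to 1.92, adjusted p = 0.382), and its variants overlapped. It was 1859, 1556, and 1585 CPM in T98G “WWOX” (log2FC −0.42) and 3469, 6018, and 5835 CPM in DBTRG-05MG “WWOX” (log2FC 0.57), again with overlap. HLA-B “WWOX” libraries held 14.7, 18.7, and 8.47 CPM in U87MG, 26.2, 17.4, and 32.9 CPM in T98G, 50.5, 100.5, and 28.7 CPM in U251MG, and 29.3, 74.4, and 51.3 CPM in DBTRG-05MG. They overlapped “Vec” in every line (log2FC 0.27, 0.18, 0.60, and 0.31).

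In T98G, the estimates of several genes were below 0. TAP1 measured 26.0, 29.4, and 21.1 CPM in T98G “WWOX” against 47.0, 30.8, and 55.1 CPM in “Vec”, a log2FC of −0.76 (95% confidence interval −1.68 to 0.16, adjusted p = 0.552). PSMB9, whose start lies beside it, measured 128, 219, and 103 CPM against 280, 191, and 386 CPM (log2FC −0.95, adjusted p = 0.520), and PSMB8 had −0.83 (adjusted p = 0.433). HLA-E measured 229, 216, and 199 CPM against 396, 238, and 488 CPM (log2FC −0.74, adjusted p = 0.624). On the scaled values, HLA-F alone did not overlap downward (0.372, 0.520, and 0.594 CPM against 0.633, 0.815, and 1.48 CPM), as did 9.23% of all genes, with a log2FC of −0.56 that did not pass. TAPBP measured 134, 147, and 175 CPM in T98G “WWOX” (log2FC −0.35). The CPM of TAP1, HLA-E, and TAPBP did not overlap between the variants of T98G, but their scaled values did.

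The other values of these genes overlapped on the scaled values. HLA-E held 229, 268, and 254 CPM in U87MG “WWOX” and 272, 398, and 451 CPM in DBTRG-05MG “WWOX” (log2FC 0.15 in both lines). TAP1 held 16, 20.7, and 19.3 CPM in U87MG “WWOX” and 49.0, 66.5, and 85.1 CPM in DBTRG-05MG “WWOX” (log2FC 0.24 and 0.04). TAPBP, with log2FC of −0.26 in U87MG, 0.36 in U251MG, and −0.15 in DBTRG-05MG, held 256, 250, and 299 CPM in U251MG “WWOX” and 148, 281, and 211 CPM in DBTRG-05MG “WWOX”. HLA-F held 0.612, 0.475, and 0.169 CPM in U87MG “WWOX” and 2.24, 3.24, and 3.77 CPM in DBTRG-05MG “WWOX”. None of these variants stood apart.

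Whether the effect of WWOX in 1 line differed from the mean effect of the remaining 3 was tested for every gene. This passed for 0 of 8 genes in U87MG (beside 2.39% of all genes), T98G (1.53%), U251MG (0.422%), and DBTRG-05MG (0.982%). At an unadjusted p under 0.05, TAP1 was past it in T98G (−1.07, standard error 0.51, adjusted p = 0.389), 1 of 8 genes beside 12.8% of all genes. B2M was in U251MG (0.85, standard error 0.38, adjusted p = 0.388), 1 of 8 beside 11.4%. In T98G, 0 of 8 differences were above 0 and their median was −0.76, beside −0.05 over all genes. These comparisons share libraries with each other and with the values above. Their counts include HLA-F, which entered the model only through a “WWOX” library of U251MG, so the filter was not neutral for it.

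The U251MG libraries stood apart from each other. The library labelled “WWOX” replicate 2 held 1427 CPM of HLA-E, 112 CPM of TAP1, 100.5 CPM of HLA-B, and 5.65 CPM of HLA-F, the highest value of each among the 24. The library labelled “WWOX” replicate 1 held 254, 26.1, 50.5, and 0.755 CPM of the same genes, and replicate 3 held 664, 54.4, 28.7, and 1.35 CPM. Correlations between the replicates of that group were 0.880 to 0.932, whereas those of the other groups were 0.940 to 0.988. Without replicate 2, the log2FC of HLA-E became −0.44, that of TAP1 −0.10, and that of HLA-B −0.09, and those of HLA-C, TAPBP, and NLRC5 became 0.53, 0.18, and 0.07. B2M kept 1.15 (adjusted p = 0.0621). HLA-F no longer passed the filter.

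**Figure D4:**
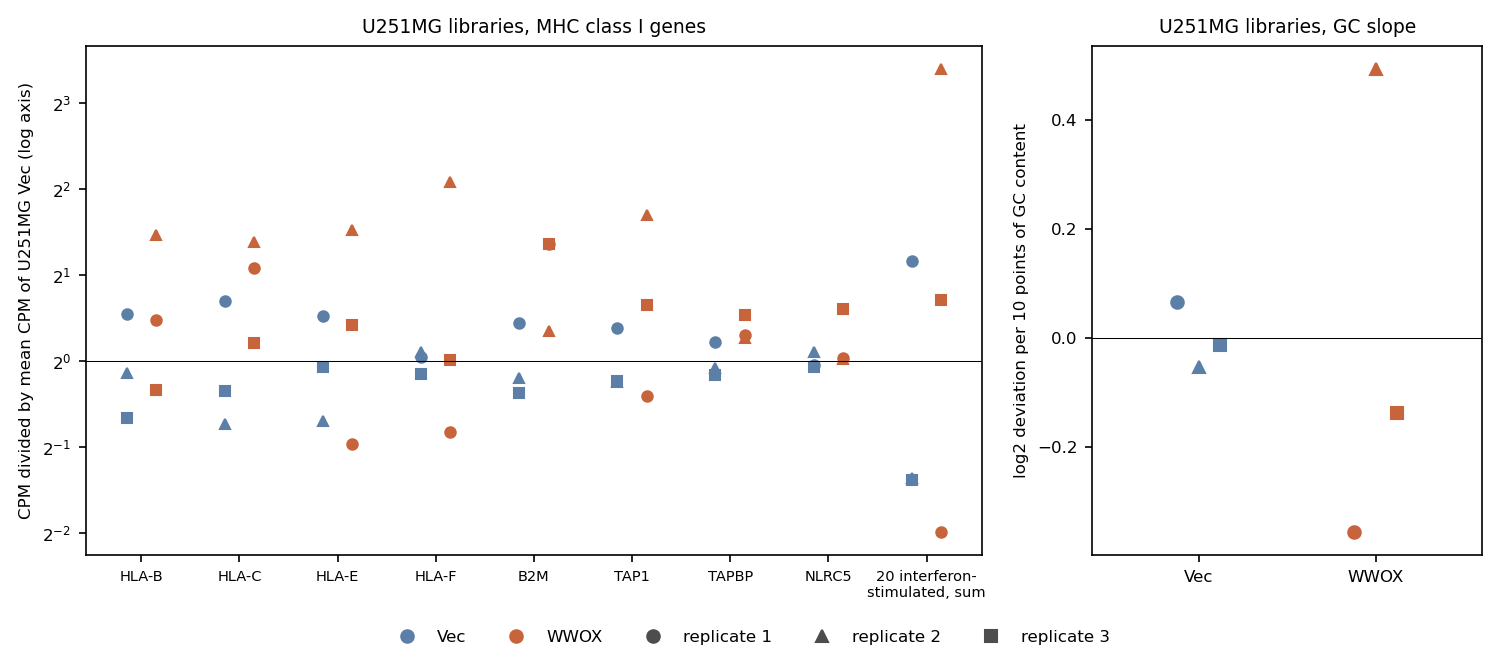
Left, CPM of the 8 genes and the summed CPM of 20 interferon-stimulated genes in each U251MG library, divided by the mean of the 3 “Vec” libraries (log axis); right, the slope of each library with GC content (log2 per 10 points). “WWOX” replicate 2 is highest for 5 of the 8 genes, for the interferon-stimulated sum, and for the slope.

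Interferon-stimulated genes moved with these libraries. The 20 genes summed to 326, 13644, and 2117 CPM in the U251MG libraries labelled “WWOX” replicates 1, 2, and 3, and to 2888, 506, and 495.5 CPM in “Vec”. IFI6 ran from 178 to 6956 CPM and ISG15, a ubiquitin-like modifier, from 50.1 to 5408 CPM within “WWOX”. In U87MG the sum was between 249 and 329 CPM in all 6 libraries, in T98G between 910 and 2242 CPM, and in DBTRG-05MG between 294 and 1835 CPM. None of the 20 passed the threshold of “WWOX” against “Vec” in any line. Slopes with GC content were −0.36, 0.49, and −0.14 log2 per 10 points in U251MG “WWOX”, and 0.07, −0.05, and −0.01 in “Vec”, and in T98G “Vec” they were 0.06, −0.34, and 0.28. The GC content of the transcripts was 38.9% for B2M and between 52.0% and 62.7% for the other genes tested. The part of either measure in the class I values was not tested as such. After each library was corrected for GC content and length, an alternative chosen after the data had been seen, B2M passed in U251MG (log2FC 1.13, standard error 0.27, adjusted p = 0.0434), 1 of 8 genes beside 1.20% of all genes. NLRC5 passed as the mean of the lines (log2FC 0.33, adjusted p = 0.0398), 1 of 8 beside 2.88%. With the replicate number as a block as well, their adjusted p was 0.0925 and 0.0963.

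The 8 genes tested were compared with each other over the 24 libraries, which share lines, so the values are descriptions. Pearson's r of the scaled log2 values was 0.864 between HLA-C and TAP1, 0.885 between HLA-C and TAPBP, 0.863 between HLA-B and HLA-C, and 0.127 between TAPBP and NLRC5. After the group means were removed, HLA-E and TAP1 had 0.967, HLA-B and HLA-F 0.807, and B2M lay between −0.356 (with NLRC5) and 0.464 (with TAPBP). The same deviations had r = 0.866 with the GC slope of the library for HLA-E and for TAP1 and −0.484 for B2M. Among the genes most like the mean of the 8 were LGALS3BP, a secreted glycoprotein (r = 0.944), UPK1A (0.914), GUSB (0.914), and ZSWIM9 (0.892). With the line means removed they were IFI6 (0.912), LGALS3BP (0.872), BISPR (0.868), SLAMF9 (0.865), and SMPD1 (0.865). The U251MG libraries labelled “WWOX”, which stood apart from each other, are among the 24. None of these correlations was computed without them.

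Around the pathway, “WWOX” against “Vec” gave 0 calls in each line for peptide loading and trimming (15 genes tested), the immunoproteasome (5), the constitutive subunits (3), the regulators (14), interferon signalling (10), and the interferon-stimulated genes (20). MHC class II genes (7 tested) held calls. HLA-DPB1, a class II beta chain, fell in T98G from 7.52, 5.64, and 10.0 CPM to 0.279, 0.520, and 0 CPM (log2FC −3.52, standard error 0.31, adjusted p = 5.19e-07). It rose in DBTRG-05MG from 2.36, 0.837, and 2.17 CPM to 5.37, 7.19, and 8.43 CPM (log2FC 1.69, adjusted p = 0.00423). The libraries did not overlap in either line. HLA-DQB1 fell in U87MG (log2FC −1.14, standard error 0.23, adjusted p = 0.00479), the line in which it ran from 20.5 to 26.3 CPM in “Vec” and from 7.04 to 15.1 CPM in “WWOX”. The call of HLA-DPB1 in T98G was lost with a separate model for each line (adjusted p = 0.0575). Its call in DBTRG-05MG was lost with a pseudocount of 0.1, the replicate block, a separate model, edgeR, and limma-voom (adjusted p = 0.0829, 0.0604, 0.113, 0.0957, and 0.0616), and with the GC and length correction in the block (adjusted p = 0.0875). The call of HLA-DQB1 was lost with a pseudocount of 0.1, a separate model, edgeR, and DESeq2 (adjusted p = 0.133, 0.238, 0.368, and 0.218). The 8 class I genes tested gave no call in the same comparisons.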

How the data were processed

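CAGE-Seq libraries from 24 samples were analyzed. Per the labels and their processing notes, reads were aligned to hg38 with STAR and handled with SAMtools, and the authors deposited, for each gene, CPM that sum to 1000000 in a library. Of 43037 genes, 43033 matched a symbol. All values were whole tags within 0.01 of a tag (100% in each library), so tags were recovered, and 0 columns were left unused. TMM scaling (30% of M, 5% of A trimmed) was applied, and 0.5 was added before log2, which understates changes of low genes. Genes reaching 5 CPM in some library entered limma 3.58.1 (trend, 16 residual degrees of freedom). The p values are two-sided and were adjusted by Benjamini-Hochberg over 12327 genes, with a threshold of 0.05. Alternatives used edgeR 4.0.16 and DESeq2 1.42.0 on the recovered tags. The procedure was tested on simulated data. All 9 genes are named, other genes by lists, by calls within them, or by likeness, and 1 gene that the rule names is not reported here. The genes and lists were chosen with earlier results of these data known.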

Additional observations from a re-analysis of the deposited data

Results flagged for a closer look

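The effect of WWOX differed between lines, by the interaction term of limma, for 4 results of the related lists and for 0 of the class I genes. The results of HLA-DPB1 share libraries and are not independent of each other. HLA-DQB1 was too low outside U87MG to show an effect there, so its difference largely repeats its effect in U87MG. For HLA-DPB1 the log2FC in T98G was 3.83 below the mean of the other lines (−3.83, standard error 0.36, adjusted p = 2.47e-06), and in DBTRG-05MG it was above it (3.12, standard error 0.36, adjusted p = 1.99e-05). HLA-DPB1 held 0 tags in all U251MG libraries, and both differences were lost with edgeR on the recovered tags (adjusted p = 1). For HLA-DQB1, which was at or under 3 tags outside U87MG, the difference of U87MG was −1.22 (standard error 0.27, adjusted p = 0.0132), lost with a pseudocount of 0.1, the replicate block, edgeR, limma-voom, and DESeq2 (adjusted p = 0.116, 0.0667, 1, 0.181, and 0.412) and without U87MG “Vec” replicate 2 or “WWOX” replicate 1 (adjusted p = 0.0710 and 0.0682). CDH5, an endothelial cadherin, reached the 5 CPM of the filter only in “WWOX” libraries of U251MG. The filter therefore favoured a rise there and a difference from the other lines. CDH5 rose in U251MG (log2FC 1.28, adjusted p = 0.0133), from between 2.01 and 3.81 CPM to between 4.43 and 13.2 CPM. That call was lost without “Vec” replicate 2, “Vec” replicate 3, or “WWOX” replicate 1 of U251MG (adjusted p = 0.0675, 0.170, and 0.0690) and with a pseudocount of 0.1, a separate model per line, edgeR, limma-voom, and DESeq2 (adjusted p = 0.141, 0.924, 0.243, 0.113, and 0.178). Its difference from the other lines was 1.25 (standard error 0.27, adjusted p = 0.0398), which was lost in 17 of 24 fits without a single library (adjusted p from 0.0171 to 0.230 over the 24). It was also lost with a pseudocount of 0.1, CPM as deposited, the replicate block, edgeR, limma-voom, DESeq2, and the GC and length correction (adjusted p = 0.243, 0.0807, 0.0809, 1, 0.423, 0.717, and 0.0793).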

How the results depend on the processing

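Besides the 24 libraries left out in turn, 0 class I genes were called for “WWOX” against “Vec” in any line, as a difference, or as the mean under other settings (pseudocount, filter, scaling, separate models, edgeR, limma-voom, DESeq2). Replicate numbers did not pair the libraries (same-number correlations of deviations between −0.546 and 0.510), and the replicate block called 0 class I genes too. In the “Vec” comparisons, U87MG differed from T98G for 3 to 4 genes, from U251MG for 3 to 7, and from DBTRG-05MG for 5 to 6 under those settings, and for 2 to 3, 2 to 6, and 4 to 6 with single libraries left out. The count against U251MG was 7 with CPM as deposited and 7 with the GC and length correction, and 2 without U87MG “Vec” replicate 3 or U251MG “Vec” replicate 1. U251MG against DBTRG-05MG gave 1 without U251MG “Vec” replicate 1. The correction gave 1 gene in U251MG and 1 as the mean of the lines. With “WWOX” libraries in place of “Vec”, T98G differed from U251MG for 3 genes, HLA-F counted among them, and from DBTRG-05MG for 4.

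Several estimates changed sign, and the cause was not tested. B2M in T98G was 0.017 with median of ratios scaling, 0.0026 with edgeR, and 0.026 with DESeq2. HLA-E as the mean of the lines was 0.025 with CPM as deposited, 0.080 with edgeR, 0.0024 with limma-voom, 0.091 with DESeq2, and 0.055 with the GC and length correction, with or without the replicate block. WWOX in U251MG was 0.0066 with CPM as deposited, 0.087 with edgeR, 0.018 with limma-voom, and 0.077 with DESeq2. With single libraries left out, log2FC in U87MG ran from −0.10 to 0.40 for HLA-C, −0.018 to 0.26 for HLA-E, and −0.018 to 0.57 for HLA-F. In T98G it ran from −0.10 to 0.60 for HLA-B, −0.15 to 0.14 for B2M, and −0.10 to 0.25 for NLRC5. In U251MG it ran from −0.095 to 1.14 for HLA-B, −0.44 to 1.13 for HLA-E, −0.10 to 1.26 for TAP1, and −0.30 to 0.23 for WWOX. In DBTRG-05MG it ran from −0.056 to 0.40 for HLA-E, −0.023 to 0.40 for B2M, −0.21 to 0.28 for TAP1, and −0.48 to 0.13 for TAPBP. As the mean of the lines it ran from −0.22 to 0.17 for HLA-E and −0.15 to 0.20 for TAP1. HLA-C and TAPBP stayed lower in U87MG “Vec” than in each other line under every alternative and without each library. At 3 tags, changes of TAP2 and HLA-F were near the limit of depth.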
